A study of Drosophila melanogaster with 8 samples.

Results

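HeT-A is a retrotransposon of Drosophila melanogaster that builds the chromosome ends, and the values here are its peaks of N6-methyladenine (6mA) immunoprecipitation in ovarian DNA. Its members are all rows of the deposited transposon peak lists whose sequence is named HeT-A (identifier FBte0000143), 9 of the 144 peaks that the 4 lists hold. MeDIP-seq, the assay, sequences DNA fragments pulled down by an antibody, here one against 6mA from Synaptic Systems. The 2 control libraries carried the genotype that the labels call control and the series text calls wildtype. The 2 Sam-S libraries came from ovaries with UASp-Sam-S driven by nanos-gal4. The Sam-S product is S-adenosylmethionine synthetase, an enzyme that makes the methyl donor for DNA methylation. The nanos driver acts in the germline, whereas ovaries also hold somatic follicle cells, and the DNA of both was measured together. Whether the controls carried the driver alone, the age of the flies and the number of ovaries per library are not given in the sources used here. The control libraries are called C1 and C2 below and the Sam-S libraries S1 and S2, after their replicate numbers. Batch 1 below means replicate number 1 (C1 and S1), and batch 2 means replicate number 2 (C2 and S2).

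Drosophila has no telomerase. Its telomeres are arrays of HeT-A, TART and TAHRE, which are non-LTR retrotransposons that transpose to chromosome ends. HeT-A encodes a Gag-like protein that brings its RNA to the telomere, but no reverse transcriptase of its own. Its promoter lies in its 3′ untranslated region and drives transcription of the next copy in the array. In the ovary, germline HeT-A transcripts are a target of the piRNA pathway. Many copies stand head to tail at the chromosome ends, so reads placed on the HeT-A sequence stack up the signal of these copies. A higher value could therefore come from a few copies or from all of them, and these cannot be told apart. The lists hold no peak on TART or TAHRE (0 of 144). Whether those sequences were among the ones searched is not stated, so HeT-A is the telomeric element with data here. The direction of the coordinates relative to HeT-A transcription is not stated in the sources used here either, and positions below are counted from 1 at the first base of the authors' HeT-A sequence.

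HeT-A had 1 peak in C1, 1 in C2, 4 in S1 and 3 in S2. Both Sam-S libraries had more peaks than either control library, which held on 2 of the 8 transposons with peaks (25%), HeT-A among them. The control mean was 1 ± 0 and the Sam-S mean 3.5 ± 0.707 peaks (SD, n = 2), and the two-sided exact permutation p of the difference was 0.333. That is the smallest p that this test can give with 4 libraries, so no comparison made with it could pass 0.05. The peaks covered 257 bases of HeT-A in C1, 362 in C2, 1282 in S1 and 1104 in S2. The groups did not overlap, with means of 309.5 ± 74.2 bases in control and 1193 ± 126 bases in Sam-S (SD, n = 2, exact permutation p = 0.333). More bases in each Sam-S than in each control library were likewise covered on 2 of the 8 transposons (25%), HeT-A included. As a share of the 6083 bases up to the highest HeT-A position in any list, this was 4.22% and 5.95% in the control libraries and 21.1% and 18.1% in the Sam-S libraries. Outside the place where the control libraries had their peak, the peaks covered 1025 bases in S1 and 789 bases in S2.

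**Figure D1:**
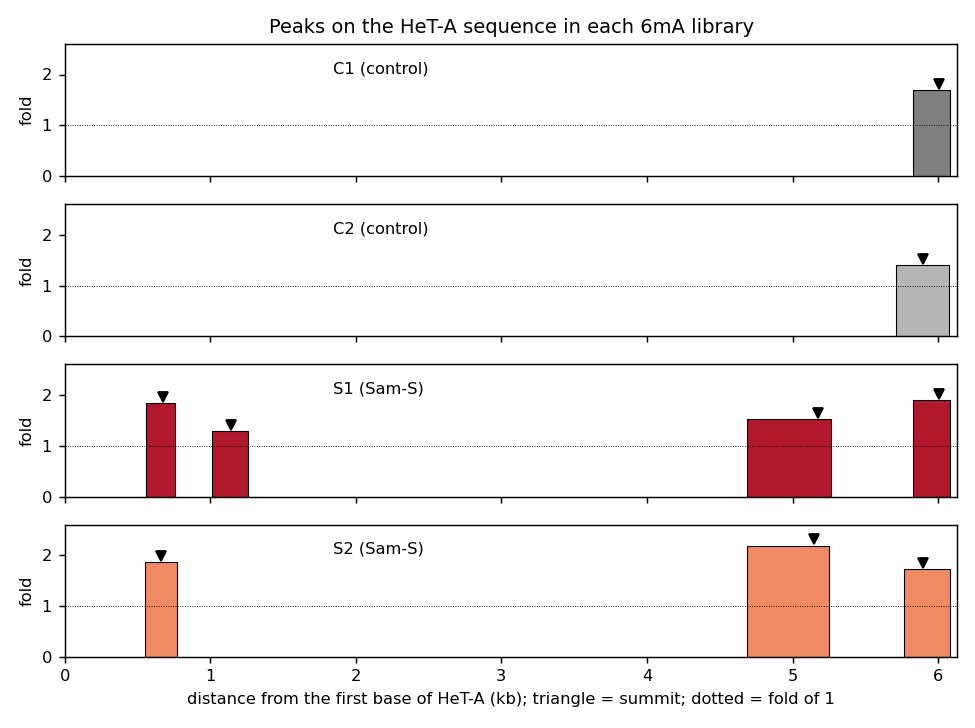
Peaks along HeT-A in each library: the x axis is the distance from the first base of the HeT-A sequence in kb, the y axis the fold enrichment over background, each bar spans 1 peak and each triangle marks its summit. All 4 libraries have a peak that reaches toward base 6083, and peaks elsewhere are seen in the Sam-S libraries.

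Peaks that shared at least 1 base were merged into 4 HeT-A positions. The position from 5714 to 6083 had a peak in all 4 libraries. The positions from 551 to 770 and from 4685 to 5262 had peaks in S1 and S2 but not in C1 or C2. The position from 1011 to 1258 had a peak in S1 alone, with a fold of 1.29. No HeT-A position (0 of 4) had its peaks in control libraries only. Positions on accord2, blood and gypsy10 did not either, whereas 412, Idefix, Tabor and roo had such positions, in 1 control library or both. Having none was thus not particular to HeT-A. Of the 47 merged positions on all transposons, 4 (8.51%) had peaks in both Sam-S libraries only and 3 (6.38%) in both control libraries only. HeT-A held 2 of those 4 positions and accord2, an LTR retrotransposon, the other two.

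The position shared by all libraries, 5714 to 6083, stands at the edge of the listed HeT-A sequence. Its peak ran to base 6083 in C1, S1 and S2, and to base 6075 in C2. The fold enrichment, which is the authors' ratio of stacked tags in the immunoprecipitated library to the background at the summit, was 1.69 in C1, 1.40 in C2, 1.90 in S1 and 1.73 in S2. Both Sam-S values were above both control values. The same held at 412 (5806 to 6153), accord2 (578 to 1216), blood (483 to 895) and roo (401 to 1200). It held at no other of the 21 positions shared by all libraries. The means were 1.55 ± 0.209 in control and 1.82 ± 0.120 in Sam-S (SD, n = 2). On the log2 scale the difference was 0.24 (exact permutation p = 0.333). Batch 1 taken alone gave 0.17 and batch 2 gave 0.31. Leaving out C2 reduced it to 0.10, and leaving out C1 raised it to 0.38. The control libraries themselves stood apart, with C2 at 0.825 times C1. Over the 20 other positions that all libraries shared, the median fold was 1.53 in C1, 1.27 in C2, 1.52 in S1 and 1.51 in S2, so C2 was low on other transposons as well. Sam-S over control at these 20 positions had a median of 0.979 in batch 1 and 1.08 in batch 2, beside 1.12 and 1.24 at the HeT-A position. The HeT-A position was 1 of 9 among 21 (42.9%) with a Sam-S fold above the control fold in each batch, so this direction was common on the other transposons too.

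The tags behind these folds were worked out from the deposited fold and −log10 p of each peak, using the Poisson rule that the caller named in the genome lists applies. The pileup, meaning the number of extended tags stacked at the summit, was 1384 in C1, 1208 in C2, 1388 in S1 and 1410 in S2 at 5714 to 6083. The S2 pileups were not whole numbers, unlike those of C1, C2 and S1. They may therefore be scaled values and not plain tag counts, which limits every comparison of S2 pileups with those of other libraries. C2 was lowest, and the other three libraries lay close together. In batch 1 the Sam-S pileup was 1.003 times the control pileup, and in batch 2 it was 1.17 times. The background against which it was set was 817 tags in C1, 864 in C2, 729 in S1 and 814 in S2. Sam-S was at 0.893 times control in batch 1 and at 0.942 times in batch 2. The higher fold of S1 than of C1 at this position therefore went with a lower background and an almost equal pileup. The log2 difference between genotypes was 0.11 in pileup and -0.13 in background (exact permutation p = 0.333 for each). With 1 library left out, the difference in pileup ran from 0.02 without C2 to 0.21 without C1, and that in background from -0.05 without S1 to -0.20 without S2. Library depth on transposons is unknown, so both were also set against the median of the 20 other shared positions in the same library. The HeT-A background was then 0.445, 0.396, 0.407 and 0.430 times that median in C1, C2, S1 and S2, and the genotypes overlapped. The HeT-A pileup was 0.457, 0.458, 0.523 and 0.499 times the median in the same order, with both Sam-S libraries above both control libraries. Against the same medians, both Sam-S pileups were also above both control pileups on blood at the positions starting at 483, 1856, 5052 and 5777. On roo this held at the position starting at 401, and the rest of the shared positions did not have this order. The order was thus not particular to HeT-A.

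**Figure D2:**
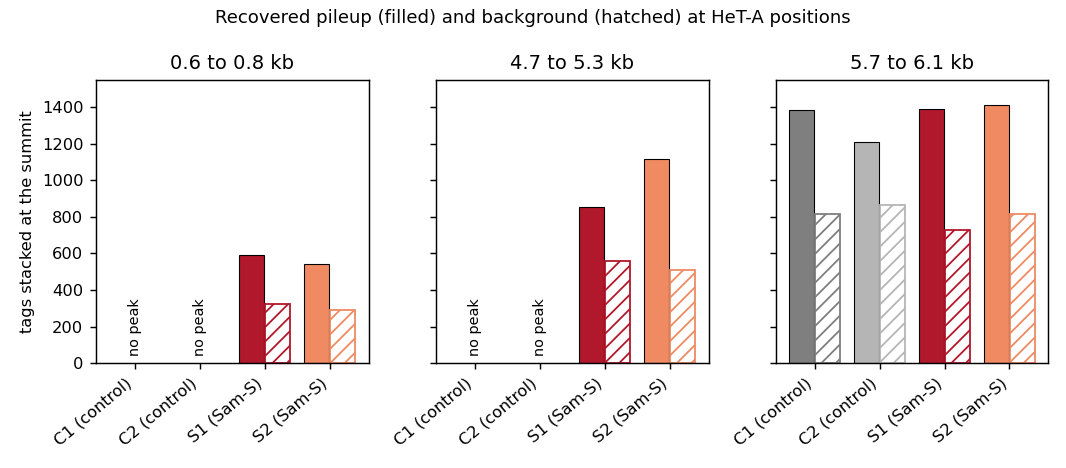
Number of tags stacked at the summit (filled bars) and background (hatched bars) recovered for the HeT-A positions called in S1 and S2; the y axis is in tags, libraries are on the x axis, and "no peak" marks libraries without a listed peak. At the position that ends at the last base, the pileup is between 1208 and 1410 tags in all libraries. The S2 values were not whole numbers and may be scaled.

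The position from 4685 to 5262 held the highest HeT-A fold of any library. The fold was 1.53 in S1 and 2.19 in S2, and neither control library had a peak there. Its pileup was 853 tags over a background of 556 in S1, and 1115 tags over 509 in S2. Both libraries outlined nearly the same stretch, with starts 5 bases apart, ends 9 bases apart and summits 24 bases apart at 5174 and 5150. Its height was less alike, since the fold in S2 was 1.43 times that in S1 and the pileup, which may be scaled in S2, 1.31 times.

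The position from 551 to 770 lies toward the other end of the sequence and was the closest in fold and summit between the Sam-S libraries. Its fold was 1.83 in S1 and 1.87 in S2, a ratio of 1.02. The pileup was 594 tags over a background of 323 in S1 and 542 over 290 in S2, the lowest backgrounds of any HeT-A peak. The summits lay 15 bases apart, at 677 and 662. By fold this position came second in both Sam-S libraries. The first was 5714 to 6083 in S1 and 4685 to 5262 in S2, so the 2 libraries differed in which position was strongest.

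A peak that is not listed in a control library does not show that the signal was absent, and the signal below the authors' cutoff was not analysed here. The fold that a peak would have needed can be estimated from the weakest peak that each list does hold, at −log10 p of 2.44 in C1 and 3.48 in C2. With the background found at 4685 to 5262 in the Sam-S library of the same batch, that p corresponds to a fold of 1.12 in C1 and 1.15 in C2, against the 1.53 and 2.19 measured in Sam-S. At 551 to 770 the fold needed was 1.15 in C1 and 1.21 in C2, against 1.83 and 1.87. These limits assume that the control libraries had a background like that of the Sam-S libraries there. At 5714 to 6083, where both can be compared, the control backgrounds were 817 and 864 tags and the Sam-S backgrounds 729 and 814. The shortest transposon peak in any list was 201 bases, so a shorter enriched stretch may also be missing from the lists. For 1011 to 1258 the fold needed was between 1.12 and 1.15 in the 3 libraries without a peak, below the 1.29 of S1.

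Summits at 5714 to 6083 were closer between libraries of the same replicate number than between those of the same genotype. The labels do not say that libraries with the same number were processed together. They lay at 6008 in C1 and 6008 in S1, and at 5896 in C2 and 5894 in S2. Libraries of one batch thus differed by 0 and 2 bases, and libraries of one genotype by 112 and 114 bases. In batch 1 the start of the peak was also the same, at 5827 in both libraries. At the 20 other shared transposon positions the range of the 4 summits had a median of 33 bases and exceeded the HeT-A range of 114 bases at 5. Both batch distances were smaller than both genotype distances at 2 of these 20, and the reverse held at 3. The mean distance had a median of 24.25 bases within a batch and 12 bases within a genotype there. The order at HeT-A was thus not that of most other positions. The part of the batch in the shape of this peak was not tested.

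The highest fold on HeT-A was 1.69, 1.40, 1.90 and 2.19 in C1, C2, S1 and S2, and it lay at 5714 to 6083 in all but S2. Both Sam-S values were thus above both control values. The highest folds of accord2 and roo had the same order, and those of the remaining transposons did not, so this order was not particular to HeT-A. Each control value came from 1 listed peak, whereas the Sam-S values were the highest of 4 peaks in S1 and of 3 in S2. The part of peak number in this difference was not tested. On the log2 scale the highest HeT-A fold differed between genotypes by 0.41 (exact permutation p = 0.333), by 0.17 in batch 1 and 0.65 in batch 2, and by 0.27 without C2. Among transposons with a peak in the library, ordered from the highest fold down, HeT-A came 6th of 7 in C1, 7th of 8 in C2, 4th of 8 in S1 and 3rd of 8 in S2. Against the median of the 6 other transposons with peaks in all libraries, its highest fold was 0.809 times in C1, 0.928 times in C2, 0.962 times in S1 and 1.12 times in S2. This relative value differed by 0.26 on the log2 scale (exact permutation p = 0.333), by 0.25 in batch 1 and 0.27 in batch 2, and by between 0.15 without S2 and 0.37 without S1. The median fold of the HeT-A peaks, by contrast, differed by -0.01 in batch 1 and 0.42 in batch 2 on the log2 scale, since the further peaks of S1 include weaker ones. Over both batches that difference was 0.20 (exact permutation p = 0.667), and it was 0.07 without C2, 0.13 without S2 and 0.34 without C1.

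More peaks in each Sam-S than in each control library were found on 2 of the 8 transposons (25%), HeT-A and accord2, and the same 2 of 8 (25%) had more bases covered. HeT-A peaks covered 3.85 times as many bases in the Sam-S as in the control libraries, with ratios of 4.99 in batch 1 and 3.05 in batch 2. For accord2 the ratio was 2.75, with 2.57 in batch 1 and 3.01 in batch 2. For the retrotransposons blood, 412, Idefix, Tabor and roo it was between 0.571 and 0.936. gypsy10 had 1 peak or none in each library. The length covered thus differed in opposite directions between elements, and whether HeT-A differs from the other elements in this length was not tested.

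**Figure D3:**
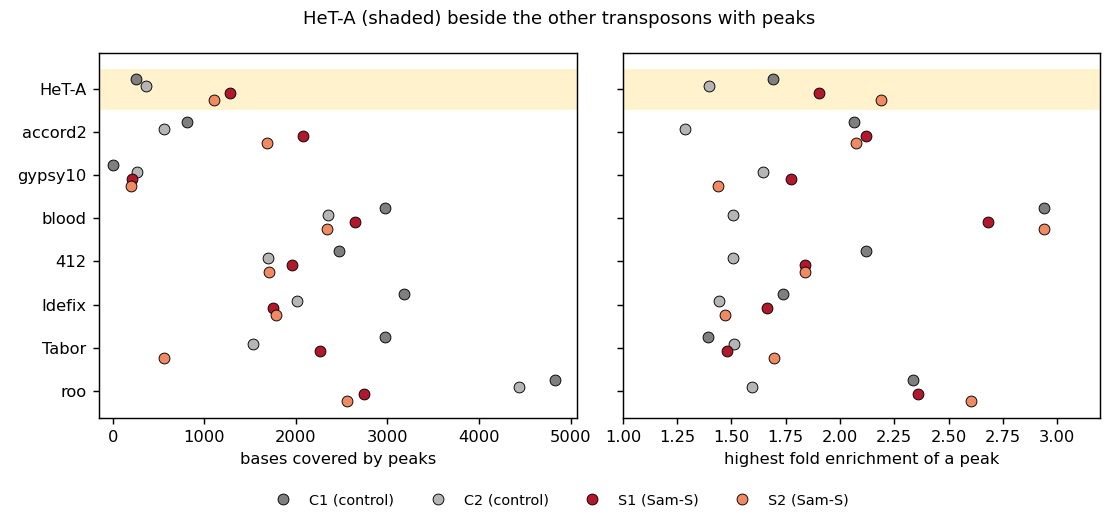
Bases covered by peaks (left) and highest fold enrichment of a peak (right) for each transposon with a peak in any list, 1 point per library, with HeT-A shaded and the elements ordered by covered length in Sam-S over control. HeT-A and accord2 are the elements whose covered length is higher in both Sam-S libraries than in both control libraries.

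The genome peak lists, made from reads that align uniquely by the paths in their headers, were searched near the ends of the chromosome arms where HeT-A arrays stand. Depth in those lists was between 39591292 and 49800736 immunoprecipitated tags per library. Within 100 kb of the telomeric ends of X, 2L, 2R, 3L, 3R and 4 there were 39 peaks in C1, 12 in C2, 46 in S1 and 58 in S2. This was 1.23%, 1.99%, 1.10% and 1.12% of the peaks on these arms. Both Sam-S shares were below both control shares with this window, but not within 200 kb, where the shares were 1.48%, 2.32%, 1.34% and 1.61% and the genotypes overlapped. Pooled over these arms, peaks per Mb were 2.77, 4.50, 2.47 and 2.53 times as dense there as on the rest of the arms. The end of chromosome 4 held the most in every library, with 18, 5, 18 and 23 peaks. The end of 3L held 1 peak in C1, 0 in C2, 0 in S1 and 4 in S2, so the pooled density was not that of every arm. The X came after chromosome 4 with 9 peaks in C1, 14 in S1 and 15 in S2, and in C2 it held 3 peaks, as many as 2R. The number of peaks near the ends followed the length of the lists, which was 3433 in C1, 683 in C2, 4244 in S1 and 5509 in S2. The transposon lists differed less in length, with 38, 32, 41 and 33 peaks. S2 had 3 HeT-A peaks in a list of 33 and C1 had 1 in a list of 38. The longest list, that of S1, held the most HeT-A peaks (4), and the shortest, that of C2, held 1. Whether the number of HeT-A peaks goes with list length was not tested.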

How the data were processed

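Peak lists of 4 immunoprecipitated libraries were used, and the 4 input libraries enter through the authors' peak calling alone. The deposited transposon lists give per peak the −log10 of the p and of the q, a ratio named fold enrichment, and a display score that equals 10 times −log10 q rounded down in every row. The caller and cutoff for these lists are not given in the sources used here. The genome lists came from MACS 2.1.1.20160309, per the file headers, with a q cutoff of 0.05, extension of tags to 200 bp, at most 1 tag per position and the smaller library scaled up. They also hold the deposited pileup signal. Bowtie2 is named in the submitters' processing notes. The genome build is not given in the sources used here, and no HeT-A sequence was used.

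Starts in the transposon lists were shifted to count from 1. Peaks sharing at least 1 base were merged. Pileup and background were solved from fold, taken as (pileup + 1) / (background + 1), and the Poisson p. On 300 peaks drawn from each genome list, solving without assuming whole numbers gave the deposited pileup to within 2.45%. Assuming whole numbers gave it with no error in the batch 1 libraries, where pileups are whole numbers. In the C2 genome list that assumption was off by up to 4.86%, and it was the one used for the C2 transposon peaks. Whole-number pileups gave back the deposited −log10 p in the transposon lists of C1, C2 and S1, to within 2 times the rounding of the deposited fold. In S2 they did not, and its pileups were solved without that assumption. On simulated data, 200 of 200 peaks were solved and 60 of 60 positions received their libraries. Counting error and PCR duplicates limit the precision, and the depth of the transposon alignments is unknown. The recovered HeT-A pileups are higher than 1 tag per position with extension to 200 bp could give. Those genome settings were therefore not used for the transposon lists, and tags at the same position may be counted more than once there.

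Genotypes were compared with two-sided exact permutation tests over the 6 assignments of the libraries. The labels do not say whether libraries came from separate flies, so the spread may be technical. Batch was taken as the replicate number, which pairs the libraries. Over the 21 shared transposon positions, same-batch deviations in log2 fold correlated at 0.07. Telomeric ends were position 1 of X, 2L and 3L and the last listed position of 2R, 3R and 4. Every HeT-A peak was described. The members, tests and settings were chosen with earlier results of these data known. The software was Python 3.11.15 with scipy 1.17.1, numpy 2.4.6, matplotlib 3.10.9 and pandas 2.3.3.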

Additional observations from a re-analysis of the deposited data

How the results depend on the processing

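All 64 alternative values computed for the HeT-A and telomeric-end results kept the direction of the reported value, and counts stayed within 1.5 times. Part of these could not differ. The replicate block leaves the mean difference as it is. A −log10 q of at least 5 removed no HeT-A peak, since their lowest value was 8.66. Merging by 50% overlap or by summits within 200 bases returned the main values. The exact permutation test of 2 against 2 libraries cannot pass 0.05, so direction and size alone were compared. With batch as a replicate block the differences were the same (2.5 peaks, 883.5 bases, and 0.41 and 0.24 on the log2 scale for the highest fold and the fold at 5714 to 6083), with p = 0.5, the smallest an exact sign-flip test of 2 pairs allows, and p = 1 for the median fold; the block changed no call. Leaving out 1 library in turn gave from 2 to 3 more peaks, 794.5 to 972.5 more bases, a highest fold higher by 0.27 to 0.55, a fold at 5714 to 6083 higher by 0.10 to 0.38 and a pileup there higher by 0.02 to 0.21 (log2); the lowest of the fold and pileup values were those without C2. The positions with a peak in every Sam-S library kept and in no control library numbered 2, or 3 without S2, where S1 alone has to hold the peak. With folds of at least 1.5, C2 had no HeT-A peak, so the fold results could not be recomputed, and 2 positions had peaks in S1 and S2 but not in C1 or C2. Set against the other shared transposon positions, a setting chosen after seeing the data, the log2 difference at 5714 to 6083 was 0.12 in fold, 0.16 in pileup and -0.005 in background. Without this setting the background difference was -0.13, so it kept its sign but hardly any of its size.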
